A study of Homo sapiens with 4 samples.

Results

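The FGF receptors and 3 of their ligands are described here in A375, a melanoma line of human origin whose BRAF gene carries an activating mutation, over 4 RNA-seq libraries. The 8 genes, FGFR1 (ENSG00000077782.23), FGFR2 (ENSG00000066468.24), FGFR3 (ENSG00000068078.20), FGFR4 (ENSG00000160867.15), FGFRL1 (ENSG00000127418.15), FGF1 (ENSG00000113578.18), FGF2 (ENSG00000138685.17) and FGF5 (ENSG00000138675.17), were chosen by name from 62649 gene identifiers, each matched to 1 identifier, and all 8 passed the filter on low counts. Parental cells gave 2 control libraries. The other 2 came from A375 cells selected for resistance to vemurafenib, a drug that blocks mutant BRAF, with a dose that began at 0.1 µM and reached 6.4 µM after weekly doublings. Both groups were grown in RPMI-1640 with fetal bovine serum. The labels do not say whether the drug was present at harvest, whether the controls received the DMSO vehicle, or whether the resistant cells were cloned. The deposited files of the resistant libraries are numbered differently from their labels, and were assigned by the sample record that holds them. The design text speaks of biological replicates but names no separate cultures, so the p-values rest on library-to-library spread that may be partly technical.

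Fibroblast growth factors are secreted ligands that bind receptor tyrosine kinases together with heparan sulfate, the sugar chains of cell-surface and matrix proteoglycans. Ligand binding pairs the receptors, which phosphorylate the adaptor FRS2 and through it switch on the RAS to ERK cascade, the pathway that vemurafenib blocks at mutant BRAF. FGFR1 to FGFR4 carry a kinase domain, whereas FGFRL1 binds ligands but lacks one. FGF2 is known as a growth factor of melanocytes and melanoma cells, and FGF receptor signalling has been described as a route to BRAF inhibitor resistance.

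Total counts per library ran from 68022689 to 87178097. Control replicate 1 held no odd count, whereas even values made up 62.1% to 64.5% of counts between 1 and 10 in the other 3. Its counts may thus have been doubled, in which case its total, its counts printed below and its floor overstate its depth. The test was repeated with that library halved, which left all 8 genes uncalled (edgeR adjusted p = 0.0575 for FGFR3). In every library the mates of a read pair appear to have been counted singly, so counts are of reads and can exceed the number of fragments. Values are CPM, counts relative to a library's total after TMM scaling, and a count of 3 corresponds to 0.0344 to 0.0441 CPM. SOX10 (704 to 1150 CPM) and ERBB3 (304 to 432 CPM), genes of the neural crest lineage, were high in each library. MITF (12.3 to 42.2 CPM) and S100B (11.4 to 24.3 CPM) were lower. The pigment genes PMEL, MLANA and TYR stayed at or under 2.34 CPM, and S100A1 at or under 1.86 CPM. The 4 leukocyte markers summed to between 0.559 and 1.59 CPM, the 3 endothelial markers to between 2.3 and 3.47 CPM and the 6 fibroblast markers to between 11.6 and 15.3 CPM. The 4 keratinocyte markers summed to between 49.2 and 89.5 CPM, of which KRT10 made up 47.5 to 89.1 CPM, and KRT5 reached at most 0.338 CPM.

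The comparison asks how FGF receptor and ligand transcripts differ between resistant and parental cells. The fitted level in resistant cells was 2.24-fold the control level for FGFR3 (log2 1.16 ± 0.23 SE, n = 2 per group), 2.01-fold for FGFR2 (1.01 ± 0.27) and 0.613-fold for FGFR1 (-0.71 ± 0.20). FGFR4 and FGF2 stayed within the spread between libraries. No member passed edgeR's quasi-likelihood test over all genes (Benjamini-Hochberg adjusted p under 0.05), a threshold that 272 of 24961 genes (1.09%) passed, 0.577% higher and 0.513% lower in resistant cells. At an unadjusted p under 0.05 were 3 of the 8 members, FGFR2 and FGFR3 higher and FGFR1 lower, against 13.5% of all genes (6.14% higher and 7.32% lower). The 2 groups did not overlap in 5 of the 8 (3 higher, 2 lower), a share of 62.5% beside 44.6% of all genes (22.4% higher and 22.2% lower). In DESeq2's Wald test 2 members passed, FGFR2 and FGFR3, both higher, where 4.86% of all genes did (2.32% higher and 2.53% lower). In these bulk samples a lower value in each cell cannot be told apart from fewer cells that carry the transcript.

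The starts of 3 kinase receptor genes are shown. Of these, FGFR3 and FGFR2 had higher values in both resistant libraries, while FGFR4 overlapped between groups. FGFRL1, which lacks a kinase domain, was also higher in both resistant libraries, and its window is not printed. Coordinates are on GRCh38, and each line gives the 250 bases before the RefSeq start that lies nearest to the gene's start in the count files (GRCh38.p14, strand of the gene, 5′ to 3′), and capitals mark each match to the GC box letters GGGCGG on either strand. FGFR3 lies at chr4:1793043-1793292 on the plus strand, FGFR2 at chr10:121598445-121598694 on the minus strand and FGFR4 at chr5:177086665-177086914 on the plus strand.
FGFR3: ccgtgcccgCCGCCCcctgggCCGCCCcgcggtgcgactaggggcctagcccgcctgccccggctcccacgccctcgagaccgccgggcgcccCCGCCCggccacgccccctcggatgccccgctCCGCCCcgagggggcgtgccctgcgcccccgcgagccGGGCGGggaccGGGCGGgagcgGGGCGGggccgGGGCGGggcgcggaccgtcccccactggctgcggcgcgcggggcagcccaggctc
FGFR2: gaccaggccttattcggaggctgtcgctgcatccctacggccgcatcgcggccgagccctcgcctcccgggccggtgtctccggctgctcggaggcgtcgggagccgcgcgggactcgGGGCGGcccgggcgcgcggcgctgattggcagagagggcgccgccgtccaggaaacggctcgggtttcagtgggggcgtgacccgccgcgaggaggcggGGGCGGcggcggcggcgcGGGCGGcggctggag
FGFR4: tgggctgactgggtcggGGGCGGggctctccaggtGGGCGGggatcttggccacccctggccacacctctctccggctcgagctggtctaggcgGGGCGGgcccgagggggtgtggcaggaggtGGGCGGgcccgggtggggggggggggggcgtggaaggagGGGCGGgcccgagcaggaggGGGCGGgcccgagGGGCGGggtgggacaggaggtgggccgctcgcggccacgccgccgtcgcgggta
GC content of these windows was 86.8% for FGFR3, 78.4% for FGFR2 and 79.6% for FGFR4, against a median of 58.0% over 35116 RefSeq promoter windows of the same length. GC box matches numbered 8, 3 and 7, and 42.6% of all windows held at least 1. On either strand the 3 windows held 0 matches to the AP-1 letters TGANTCA (6.6% of all windows), the ETS core CGGAAG (16.5%), the E-box CACGTG (6.3%) or the SOX letters ACAAAG (13.7%). Windows were also found for FGFRL1, FGF1, FGF2 and FGF5, 7 members in all. Of these, FGF1 had the lowest GC content, 44.8%, and no GC box match. FGFRL1's window held 1 E-box and 1 SOX match, and FGF5's held 1 SOX match. The RefSeq start used for FGFRL1 lay 2528 bases from the gene's start in the count files. A match describes the letters of a window and not a bound site.

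FGFR3, a receptor known for restraining bone growth and for activating mutations in bladder cancer, had the smallest adjusted p of the 8 genes. The gene (chromosome 4, 1793293 to 1808872) had 11.4 and 12.1 CPM in control replicates 1 and 2, and 31.2 and 21.6 CPM in resistant replicates 1 and 2. Both resistant libraries lay above both controls, and the controls differed less from each other than the resistant libraries did. The log2 fold change was 1.16 ± 0.23 (SE, 95% interval 0.63 to 1.70) with an edgeR adjusted p of 0.0662. DESeq2 gave 1.18 with an adjusted p of 0.000382. Leaving out resistant replicate 1 gave 0.88 (edgeR adjusted p = 0.287) and leaving out resistant replicate 2 gave 1.41 (0.142). With either control left out, the lone control is assumed to vary like the resistant pair, which alone gives the spread, and far more genes pass overall (416 higher and 413 lower without control replicate 1, 1146 and 1020 without control replicate 2, beside 144 and 128). FGFR3 was among them (edgeR adjusted p = 0.0183 and 0.0144), which does not show that its call is stable.

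FGFR2, a receptor best known from epithelia, was the scarcest of the 4 kinase receptors (chromosome 10, 121478332 to 121598458). Its level was 2.21 and 2.59 CPM in the controls and 4.74 and 4.90 CPM in the resistant libraries, on 158 to 405 counts. The groups did not overlap and the libraries of each group lay close together. The log2 fold change was 1.01 ± 0.27 (SE, 95% interval 0.37 to 1.64), with an edgeR adjusted p of 0.145 and a DESeq2 adjusted p of 0.0349. It kept between 0.90 and 1.13 with 1 library left out, where the smallest edgeR adjusted p was 0.0656. Counts were summed over each gene's exons, so the splice forms of FGFR1 to FGFR3 that differ in ligand choice were not separated.

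FGFR1, a receptor widely expressed in mesenchymal cells, had the most counts of the 4 kinase receptors (chromosome 8, 38400215 to 38468834). It had 64.2 and 47.1 CPM in the controls and 35.2 and 33.1 CPM in the resistant libraries. Both resistant libraries lay below both controls, and the gap between the 2 controls was wider than that from control replicate 2 to resistant replicate 1. The log2 fold change was -0.71 ± 0.20 (SE, 95% interval -1.17 to -0.24, edgeR adjusted p = 0.158; DESeq2 adjusted p = 0.0713). It was -0.46 without control replicate 1 (edgeR adjusted p = 0.543) and -0.91 without control replicate 2 (0.0169), a fit in which the resistant pair alone gives the spread and 1146 genes were higher and 1020 lower. Exons of LETM2 and of 1 unnamed gene, both on the other strand, cover 3.05% of FGFR1's exonic bases. Counting ignored strand, so reads there were left out. LETM2 had a log2 fold change of -0.14 and its groups overlapped.

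FGFR4, the receptor through which the gut hormone FGF19 restrains bile acid synthesis in liver, had nearly one level in the 4 libraries (chromosome 5, 177086905 to 177098144). Its values were 16.8 and 16.4 CPM in the controls and 18.7 and 16.7 CPM in the resistant libraries, and the groups overlapped. On the log2 scale the difference was 0.09 ± 0.19 (SE, edgeR adjusted p = 0.901), with a 95% interval of -0.35 to 0.53.

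FGFRL1 was the highest of the 8 genes (chromosome 4, 1009936 to 1026898). It had 183 and 210 CPM in the controls and 265 and 232 CPM in the resistant libraries. Both resistant libraries lay above both controls, by less than the gap between the controls for resistant replicate 2. Its fold change on the log2 scale was 0.34 ± 0.18 (SE, 95% interval -0.07 to 0.75, edgeR adjusted p = 0.474), and it stayed between 0.24 and 0.44 with 1 library left out. FGFRL1 lies near FGFR3 on chromosome 4. Within 1 Mb of FGFR3, 16 of 28 genes with at least 1 CPM had a positive fold change (median log2 0.06), and within 1 Mb of FGFRL1 20 of 31 did (median 0.06). Over the 8 members these neighbour medians ran from -0.23 for FGF5, with 4 neighbours, to 0.16 for FGFR4, with 34. No neighbour of any of the 8 was called, where 253 of all 16105 genes with at least 1 CPM were.

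**Figure D1:**
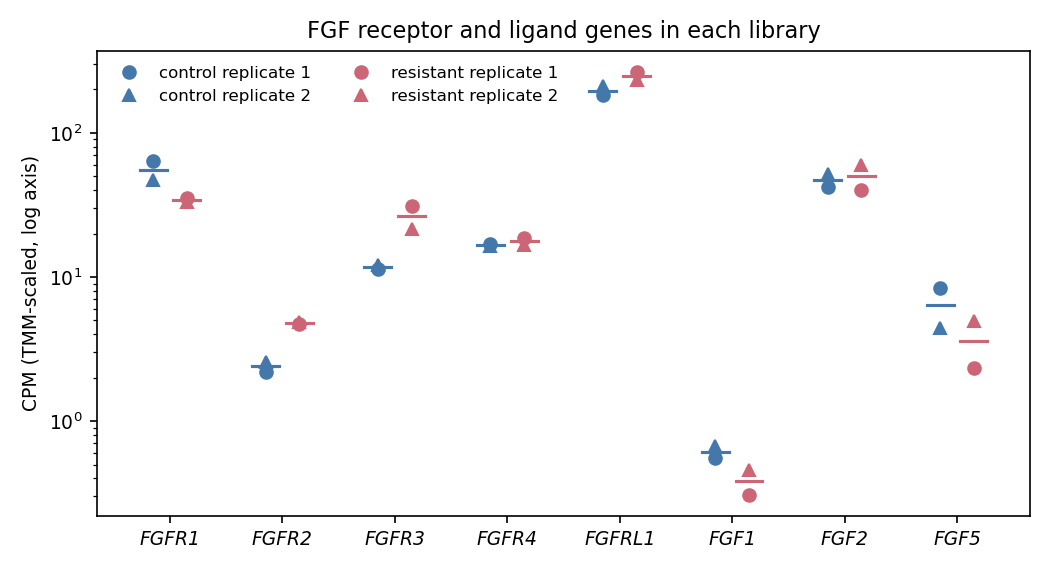
CPM (TMM-scaled, log axis) of the 8 genes in each library, with control libraries in blue, resistant libraries in red, circles for replicate 1, triangles for replicate 2 and a bar at each group's mean. FGFR2, FGFR3 and FGFRL1 have both resistant libraries above both controls, FGFR1 and FGF1 have both below, and FGFR4, FGF2 and FGF5 overlap.

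FGF2, the basic fibroblast growth factor, was the main ligand of the 3 (chromosome 4, 122826708 to 122898236). Its level was 41.9 and 52.0 CPM in the controls and 39.9 and 60.2 CPM in the resistant libraries. The resistant libraries lay on either side of both controls. Its fitted log2 fold change was 0.09 ± 0.23 (SE, 95% interval -0.45 to 0.63, edgeR adjusted p = 0.926), and its sign turned without resistant replicate 2 (-0.23) and without control replicate 1 (-0.05). NUDT6, a gene on the other strand that overlaps FGF2 and is known as its antisense partner, overlaps 11.87% of FGF2's exonic bases. NUDT6 had 6.01 and 4.84 CPM in the controls and 3.52 and 3.39 CPM in the resistant libraries (log2 -0.65, edgeR adjusted p = 0.34), and reads of the shared stretch were left out of both genes.

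FGF5, a ligand known for ending the growth phase of hair, was lower by mean but not by library. It had 8.36 and 4.46 CPM in the controls and 2.34 and 4.91 CPM in the resistant libraries (chromosome 4, 80266639 to 80336680). CFAP299 on the same strand overlaps 2.28% of its exonic bases. Resistant replicate 2 lay above control replicate 2, so the groups overlapped. FGF5's log2 fold change was -0.82 ± 0.43 (SE, 95% interval -1.82 to 0.19, edgeR adjusted p = 0.48), with -1.45 when resistant replicate 2 was left out and -0.29 when control replicate 1 was. FGF1, the acidic fibroblast growth factor, which can bind each of the 4 kinase receptors, was barely detected (chromosome 5, 142592178 to 142698070). Its 4 libraries held 40, 58, 22 and 38 counts (0.559 and 0.670 CPM in the controls, 0.309 and 0.460 CPM in the resistant libraries). Both resistant libraries lay below both controls, and the log2 fold change was -0.67 ± 0.47 (SE, edgeR adjusted p = 0.616). At these counts the 95% interval was as wide as -1.76 to 0.42.

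**Figure D2:**
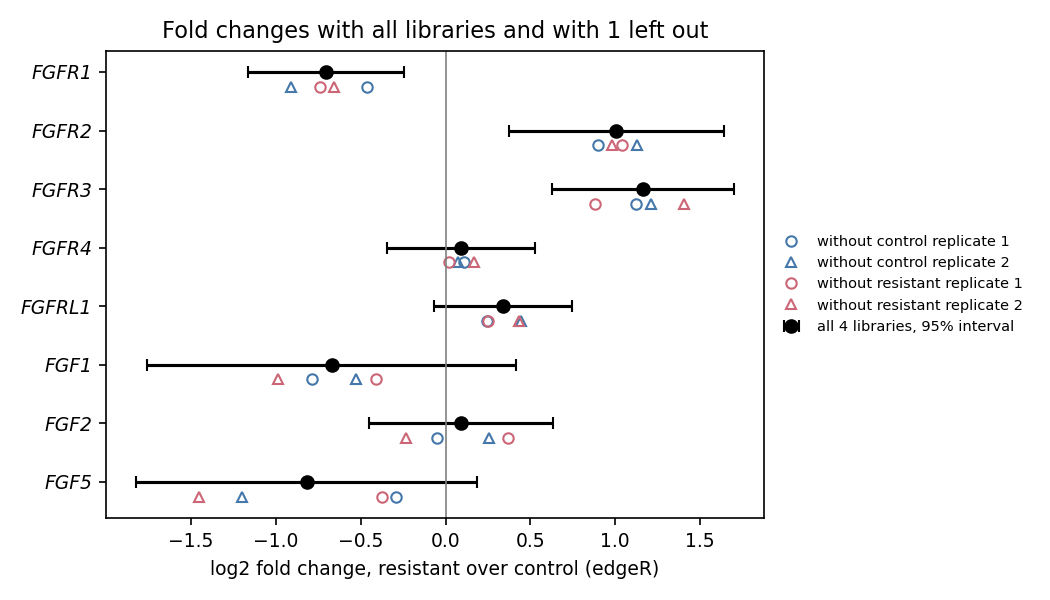
Fitted log2 fold changes, resistant over control, of the 8 genes: black points with bars for the fit of all 4 libraries and its 95% interval, and open symbols below each for the fits with 1 library left out. The intervals of FGFR1, FGFR2 and FGFR3 do not reach 0 before adjustment over all genes, and the open symbols of FGF2 fall on both sides of 0.

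Levels were set side by side between genes as CPM per kilobase. Divided by all annotated exonic bases, FGFRL1 was highest in the controls with 45.3 ± 4.42 CPM per kb (mean ± SD, n = 2). It was followed by FGF2 with 6.93 ± 1.05, FGFR4 with 3.45 ± 0.0610, FGFR1 with 3.24 ± 0.704, FGFR3 with 2.43 ± 0.109, FGF5 with 1.08 ± 0.463, FGFR2 with 0.127 ± 0.0142 and FGF1 with 0.123 ± 0.0157 CPM per kb. FGFR4 and FGFR1 overlapped between the control libraries, as did FGFR2 and FGF1. In resistant cells FGFR3 ranked 3 with 5.45 ± 1.40 CPM per kb, overlapping FGF2 with 7.38 ± 2.12, and FGFR1 ranked 5 with 1.98 ± 0.0853, below FGFR4 with 3.68 ± 0.281 CPM per kb. The order of the receptors depends on the length used. All annotated exons of FGFR1 span 17201 bases and its principal transcript in GENCODE 29 spans 5900, against 4848 and 4306 bases for FGFR3. On the principal transcripts FGFR1 ranked 2 in the controls with 9.43 ± 2.05 CPM per kb and 4 in resistant cells with 5.79 ± 0.249, where it overlapped both FGFR3 (6.13 ± 1.58) and FGFR4 (5.67 ± 0.434 CPM per kb).

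As a share of the summed FGFR1 to FGFR4 level per annotated length, FGFR3 made up 24.3% and 28.5% in control cells, but 51.0% and 44.0% in resistant cells. FGFR1 made up 38.5% and 31.1% in control cells, but 16.2% and 19.0% in resistant cells. In both receptors the groups lay well apart. The shares of a library make up a whole, so a higher share of any receptor lowers the rest, and they are not separate results. The differences were 21.2 percentage points for FGFR3 and -17.2 for FGFR1, each with an exact permutation p of 0.333 (two-sided), the smallest that 2 against 2 libraries can give. On the principal transcripts they were 16.7 and -21.0 points. FGFR4's share was 36.1% and 38.8% in control cells and 30.8% and 34.4% in resistant cells, but that difference (-4.86 points) turned to 0.391 points on the principal transcripts. FGFR2 stayed a minor part, between 1.21% and 2.57%, or between 3.67% and 9.10% on the principal transcripts. The ratio of FGFR3 to FGFR1 per annotated length was 0.630 and 0.915 in control cells, but 3.15 and 2.32 in resistant cells. This 3.56-fold difference (exact permutation p = 0.333) combines the changes of both genes given above, and length cancels out of it by construction. The ratio was not planned, and it sets the kinase receptor with the highest fold change over the one with the lowest. The summed receptor level was 9.70 and 8.79 CPM per kb in control cells, and 12.6 and 10.1 in resistant cells, and on the principal transcripts the groups overlapped (19.6 and 16.9 against 20.7 and 17.6 CPM per kb). With no length the direction of the summed level turned, from a mean of 86.4 CPM in control cells to 83.1 CPM in resistant cells, and the groups overlapped.

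**Figure D3:**
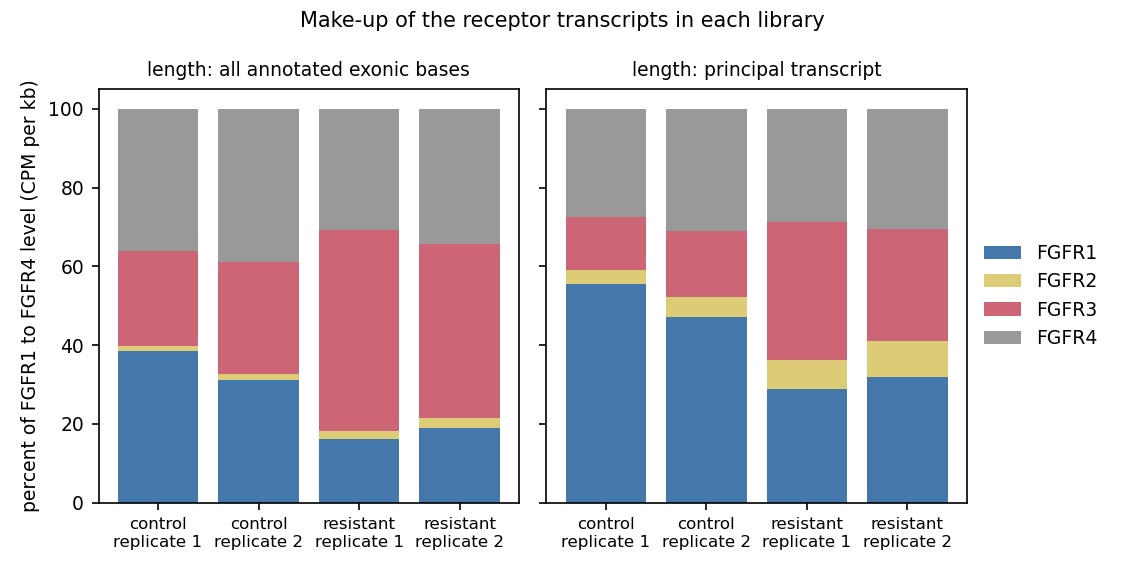
Share of FGFR1, FGFR2, FGFR3 and FGFR4 in their summed level (percent of CPM per kb) in each of the 4 libraries, with levels divided by all annotated exonic bases on the left and by the principal transcript on the right. The FGFR3 part is wider and the FGFR1 part narrower in both resistant libraries with either length.

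Among FGF1, FGF2 and FGF5, FGF2 made up 80.3% and 89.7% of the summed level per annotated length in control cells, and 92.8% and 90.6% in resistant cells. FGF5 made up 18.2% and 8.74% in control cells, but 6.18% and 8.41% in resistant cells. Its difference was -6.18 points with all libraries (exact permutation p = 0.333) and -1.44 points without control replicate 1, and that of FGF2 was 6.73 and 2.05 points. Of the other 19 FGF ligand genes, 11 passed the filter on low counts and none was called in edgeR, beside 1.09% of all genes. Among the 11, 2 (18.2%, beside 13.5% of all genes) had an unadjusted p under 0.05, FGF13 and FGF20 (at most 0.363 CPM), both lower. Only FGF12 and FGF13, intracellular members that are not secreted, had at least 5 CPM. FGF13 had 9.98 and 13.2 CPM in the controls and 6.13 and 7.40 CPM in the resistant libraries (log2 -0.77 ± 0.25 SE, edgeR adjusted p = 0.213), and FGF12 overlapped between groups. The 8 ligand genes that did not pass the filter, FGF3, FGF4, FGF6, FGF7, FGF9, FGF10, FGF16 and FGF17, had at most 20 counts in any library.

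Heparan sulfate proteoglycans present FGFs to their receptors. Of the 24 listed genes of these proteins and their enzymes 1 was called in edgeR, beside 1.09% of all genes (272 of 24961). SULF1, an extracellular enzyme that trims sulfate groups from heparan sulfate and is known to dampen FGF2 signalling, had 6.60 and 7.21 CPM in the controls and 24.7 and 15.5 CPM in the resistant libraries. SULF1 rose 2.91-fold (log2 1.54 ± 0.27 SE, edgeR adjusted p = 0.0478, higher in both resistant libraries), and it missed the threshold without resistant replicate 1 (log2 1.18, 0.162) and without resistant replicate 2 (log2 1.84, 0.0942). It also missed the threshold on library totals alone (edgeR adjusted p = 0.0529), with a filter at 10 CPM (0.0742), with the replicate block (0.0945) and in limma voom (0.0507). It passed with DESeq2 size factors in edgeR (edgeR adjusted p = 0.0439), with control replicate 1 halved (0.0401) and with no filter on low counts (2.65e-07). DESeq2's Wald test gave an adjusted p of 5.8e-06. The list's median log2 fold change was 0.06 (all genes 0.01), and 8 of its 24 genes (33.3%) had an unadjusted p under 0.05, 5 higher and 3 lower, beside 13.5% of all genes (6.14% higher and 7.32% lower).

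SDC2, the gene of the cell-surface proteoglycan syndecan-2, had 18.5 and 25.8 CPM in the controls and 65.7 and 45.9 CPM in the resistant libraries (log2 1.33 ± 0.25 SE, edgeR adjusted p = 0.0563). At the other end, HS3ST1, a heparan sulfate sulfotransferase gene, had 10.6 and 6.27 CPM in the controls and 3.46 and 4.48 CPM in the resistant libraries (log2 -1.09, edgeR adjusted p = 0.178). EXT1, which encodes a polymerase of the heparan sulfate chain, had 137 and 126 CPM in the controls and 59.8 and 99.6 CPM in the resistant libraries (log2 -0.72, edgeR adjusted p = 0.244). In DESeq2's test 5 genes of this list were higher (SULF1, SDC2, SDC3, GPC2 and GPC6) and 1 was lower (HS3ST1), where 4.86% of all genes passed. SDC3, GPC2 and GPC6, further core proteins, were named after their values were seen.

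None of the 13 tested FGF co-receptor and binding protein genes was called in edgeR, beside 1.09% of all genes. An unadjusted p under 0.05 was held by 5 (38.5%), beside 13.5% of all genes, NCAM1 higher and NRP1, L1CAM, FGFBP1 and FGFBP2 lower. NCAM1, a neural adhesion molecule that can bind FGF receptors, had 8.61 and 12.0 CPM in the controls and 21.2 and 22.4 CPM in the resistant libraries (log2 1.08 ± 0.23 SE, edgeR adjusted p = 0.0766). NRP1, the neuropilin-1 gene, had 109 and 133 CPM in the controls and 52.7 and 66.3 CPM in the resistant libraries (log2 -1.02 ± 0.19 SE, edgeR adjusted p = 0.0589). Both passed in DESeq2, 1 in each direction, where 4.86% of all genes passed. L1CAM, an adhesion molecule gene, differed by -0.47 on the log2 scale (edgeR adjusted p = 0.315). FLRT1, which encodes an FGF receptor-binding membrane protein, had 0.559 and 5.46 CPM in the controls and 10.0 and 7.72 CPM in the resistant libraries, so that control replicate 1 stood apart. Its log2 fold change was 1.55 with all libraries (edgeR adjusted p = 0.465), 0.70 without control replicate 1 and 3.99 without control replicate 2.

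**Figure D4:**
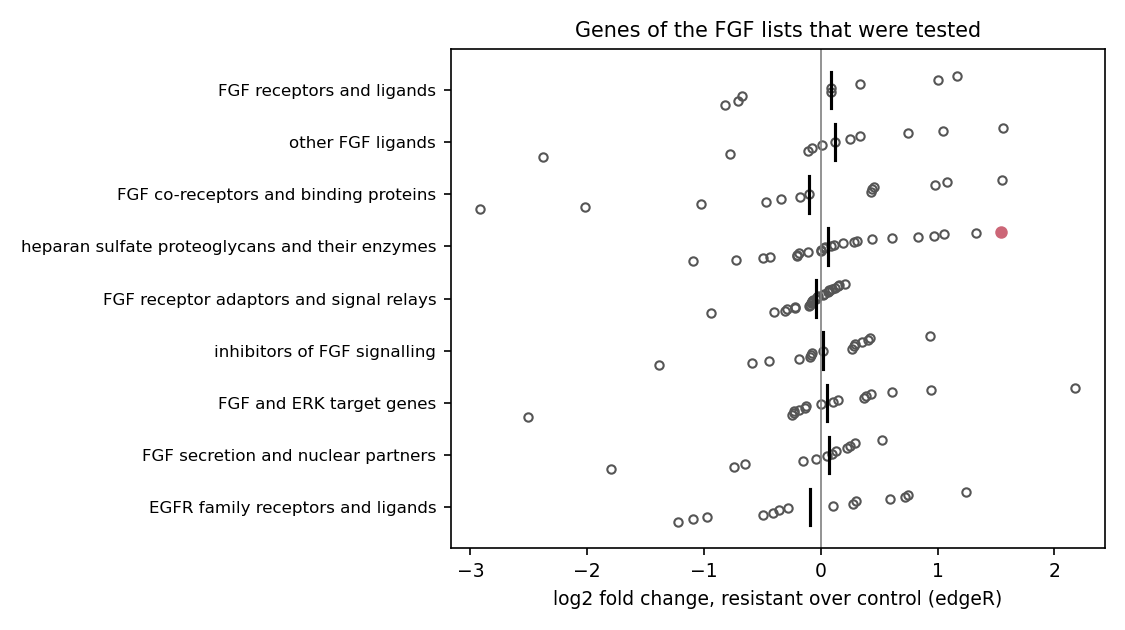
Fitted log2 fold changes, resistant over control, of the tested genes in each list, 1 open circle a gene, with a black line at the list median and a filled red circle for the called gene, SULF1. The medians lie between -0.10 and 0.12, while single genes reach -2.91 and 2.18.

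Downstream of the receptors, none of 25 adaptor and signal relay genes was called in edgeR, beside 1.09% of all genes (median log2 of the list -0.04). An unadjusted p under 0.05 was held by 1 gene not reported here (4% of the list), beside 13.5% of all genes. FRS2, the adaptor that FGF receptors phosphorylate, had a log2 fold change of 0.09 and GRB2, which binds it, one of 0.21. GAB2 (-0.40) and CRK (0.15) did not pass either. FRS2 was named for its role after its value was seen.

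Of 15 genes that inhibit FGF signalling none was called in edgeR, beside 1.09% of all genes (median log2 of the list 0.02). Those with an unadjusted p under 0.05 were 3 (20%, beside 13.5% of all genes), 1 higher and 2 lower. DUSP4, a phosphatase gene that ERK induces, had 187 and 231 CPM in the controls and 403 and 397 CPM in the resistant libraries (log2 0.94 ± 0.18 SE, edgeR adjusted p = 0.0642). IL17RD, also known as SEF, an antagonist at the receptor, had 19.2 and 7.59 CPM in the controls and 5.85 and 4.41 CPM in the resistant libraries (log2 -1.38 ± 0.42 SE, edgeR adjusted p = 0.19). Its log2 fold change was -0.56 without control replicate 1 and -1.90 without control replicate 2. LRIG1 differed by -0.59 on the log2 scale (edgeR adjusted p = 0.321) and DUSP5 by 0.27 (0.581). DUSP6 (log2 -0.10), SPRY2 (0.29), SPRY4 (0.36), SPRED1 (-0.08) and SPRED2 (-0.08), named after their values were seen, passed in neither edgeR nor DESeq2. DUSP4 and IL17RD passed in DESeq2, where 4.86% of all genes did. SLC25A26 on the other strand overlaps 37.9% of LRIG1's exonic bases. IL17RD and LRIG1 lie on chromosome 3 between 0 and 100 Mb, where 415 of 450 genes with at least 1 CPM had a negative fold change (median log2 -0.60), and the part of that stretch in their values was not tested.

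Of 16 FGF and ERK target genes none was called in edgeR, beside 1.09% of all genes (median log2 of the list 0.06). Those with an unadjusted p under 0.05 were 3 (18.8%, beside 13.5% of all genes), VGF and EGR1 higher and PLAU lower. VGF, a neuropeptide precursor gene induced by growth factors, had 293 and 559 CPM in the controls and 1129 and 2722 CPM in the resistant libraries (log2 2.18 ± 0.45 SE, edgeR adjusted p = 0.0742). Its log2 fold change was 1.41 without resistant replicate 2 (edgeR adjusted p = 0.245). EGR1, an immediate early transcription factor gene, had 318 and 862 CPM in the controls and 1218 and 1056 CPM in the resistant libraries (log2 0.95, edgeR adjusted p = 0.366), with 0.40 without control replicate 1 and 1.84 without control replicate 2. PLAU, the urokinase gene, had 1.93 and 0.958 CPM in the controls and 0.0844 and 0.411 CPM in the resistant libraries (log2 -2.51, edgeR adjusted p = 0.155), passed in DESeq2, and was named after its values were seen. ETV1 differed by -0.25 on the log2 scale (edgeR adjusted p = 0.619), and ETV4 (-0.14) and ETV5 (-0.12), added after their values were seen, overlapped between groups. Of 12 tested genes for FGF release and nuclear partners none was called in edgeR, beside 1.09% of all genes. Among them 4 (33.3%, beside 13.5% of all genes) had an unadjusted p under 0.05, LRRC59 higher and NUDT6, CASP1 and TEC lower. CASP1 and TEC were named after their values were seen. LRRC59, which encodes a membrane protein that binds FGF1 on its way to the nucleus, had 185 and 178 CPM in the controls and 249 and 273 CPM in the resistant libraries (log2 0.52, edgeR adjusted p = 0.207). ANXA2 had a log2 fold change of 0.29 and CEP57 one of -0.15.

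The EGFR family, another group of receptor tyrosine kinases and ligands, is given for scale. None of its 14 tested genes was called in edgeR, beside 1.09% of all genes. Unadjusted, 5 (35.7%) had a p under 0.05, 2 higher and 3 lower, beside 13.5% of all genes and 3 of the 8 FGF genes. DESeq2 called 2 genes of the EGFR family, EGFR (adjusted p = 0.00666) and AREG (0.00471), both lower, where 4.86% of all genes passed. The difference between these families was not tested. EGFR differed by -0.98 on the log2 scale (edgeR adjusted p = 0.0982) and ERBB2, named after its value was seen, by -0.50 (0.256). Of the family's ligand genes AREG differed by -1.09 (edgeR adjusted p = 0.0982), TGFA by 1.24 (0.325) and NRG1 by 0.72 (0.2). With control replicate 1 left out TGFA had 0.60, and with control replicate 2 left out 2.43.

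Genes with the most similar pattern were found over the 4 libraries as the smallest Euclidean distance between mean-centred log2 CPM, among 11621 other genes. For FGFR3 they were CASKIN1 (distance 0.127) and ELOVL7 (0.166), and 9 genes lay within 0.2. For FGF5 they were MITF, the master transcription factor gene of pigment cells (0.0879), and TGM2 (0.125), with 4 genes within 0.2. MITF had 42.2 and 22.8 CPM in the controls and 12.3 and 23.4 CPM in the resistant libraries, so its groups overlapped. For FGFR1 they were ZC4H2 (0.0579) and ZNF570 (0.0589), with 124 genes within 0.2, and for FGF2 LRRC37B (0.0369) and ZNF532 (0.0782), with 162. FGFR4 lay nearest to MYO9A and KIFBP with 1384 genes within 0.2, and FGFRL1 to ATP7A and RNF13 with 452. With 4 libraries many genes share a pattern, and these distances carry no p.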

How the data were processed

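PolyA-selected, strand-specific, paired-end RNA libraries were sequenced, per the labels' protocols. The authors deposited raw read counts per gene, made with featureCounts 2.0.0 against GENCODE 42 from duplicate-marked alignments, per the file headers. No strand or pairing option appears there, so by that program's defaults strand was ignored, mates were counted singly and reads shared by overlapping genes were left out. The submitters' processing notes name STAR, DESeq2 and GRCh38. Treatments with sorafenib or pioglitazone were not analysed here. The authors' deposited table of log2 fold changes lacks a header and a stated comparison and was used in no test. It appears among the other observations.

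Counts were filtered with edgeR's filterByExpr (24961 genes kept) and given TMM factors, and edgeR 4.0.16 quasi-likelihood F tests were run in R 4.3.3, group as the sole term, two-sided, Benjamini-Hochberg adjusted over all genes, threshold 0.05. The biological coefficient of variation was 25.5%. SE is the fold change over the square root of F, and 95% intervals use the moderated degrees of freedom. The fitting step was tested on simulated data. Alternatives used limma 3.58.1 voom, DESeq2 1.42.0, other scalings and filters, a replicate block, control replicate 1 halved and each library left out. Principal (APPRIS) transcript lengths were added after seeing the data. Per-gene exonic length is that of the deposited files. Promoter sequences are RefSeq's (GRCh38.p14).

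Members and lists were chosen with earlier results of these data known. Beside the 8 members, the text names in each list called genes and, among genes whose groups did not overlap and whose higher mean reached 5 CPM, up to 2 with the highest and 2 with the lowest fold change, plus the 2 nearest patterns of each member with at least 5 CPM and genes overlapping a member. One gene that this rule names is not reported here. Intervals and floors cover counting error or library spread only.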

Additional observations from a re-analysis of the deposited data

How the results depend on the processing

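The sign of FGFR1, FGFR2, FGFR3, FGFR4, FGFRL1, FGF1 and FGF5 was the same in each setting that gave a value, and FGF2 turned only with 1 library left out. A filter at 10 CPM in 2 libraries removed FGFR2, FGF1 and FGF5, so it gave no value for them. Counts of genes higher and lower were 144 and 128 in edgeR, 579 and 631 in DESeq2, 905 and 961 with no filter on low counts, and 29 and 32 with the filter at 10 CPM. With 1 library left out they ran from 7 to 1146 higher and from 9 to 1020 lower, both lowest without resistant replicate 2 and highest without control replicate 2. A fit that leaves out 1 library assumes that the lone library of its group varies like the other group. Members called numbered 2 in DESeq2 (FGFR2 at log2 1.02, FGFR3 at 1.18), 2 with no filter (FGFR1 at -0.68, edgeR adjusted p = 0.0297; FGFR3 at 1.18) and 0 to 2 with 1 library left out (FGFR3 without control replicate 1, FGFR1 and FGFR3 without control replicate 2). The cause of these differences was not tested. In those left-out fits log2 fold changes ran from -0.91 to -0.46 for FGFR1, 0.88 to 1.41 for FGFR3, -0.23 to 0.37 for FGF2, -0.21 to 0.34 for LRRC37B and -0.19 to 0.30 for ZNF532.

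Replicate numbers are shared by the groups, but the labels do not say that they mark a shared day or culture. The deviations of same-numbered libraries were nearly unrelated (Pearson's r across 10010 genes 0.008). With the replicate number as a block 33 genes were higher and 31 lower, and no member was called (FGFR3 edgeR adjusted p = 0.112). Of the other listed genes named, SULF1 missed the threshold under the block (0.0945) and VGF passed (2.12 on the log2 scale, 0.0371).

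Shares of the receptor or ligand sum move with the length by construction, and those of a library are tied to each other. With raw counts and no length, the difference in share was -22.8 percentage points for FGFR1, 3.03 for FGFR2, 1.98 for FGFR4 and -0.42 for FGF1. With the principal transcript it was 3.95 for FGFR2 and 0.39 for FGFR4. Without control replicate 2 log2 fold changes were -0.87 for NRP1, 1.34 for NCAM1, 1.59 for SDC2 and -1.42 for HS3ST1. Without control replicate 1 those of the same genes were -1.155, 0.86, 1.11 and -0.66. Both fits take the lone control to vary like the resistant pair, so their calls of genes beyond the members are not listed. FGF1 rests on 22 to 58 counts a library.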

Other observations

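The authors' deposited table, which gives a log fold change for 1533 gene symbols under no named comparison, lists 3 of the 8 members. It gives -0.73 for FGFR1, 1.02 for FGFR2 and 1.15 for FGFR3, beside fitted log2 values of -0.71, 1.01 and 1.16 from the counts here. The same deposited table lists FGF13 at -0.81, SULF1 at 1.58, SDC2 at 1.33, NCAM1 at 1.05, NRP1 at -1.04, DUSP4 at 0.92 and IL17RD at -1.41.

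FGFBP1, the gene of a secreted protein that carries FGFs away from the matrix, had 5.45 CPM in control replicate 1 and 0.393, 0.281 and 0.484 CPM in control replicate 2 and resistant replicates 1 and 2, so its high value came from 1 library (edgeR adjusted p = 0.262). It was named after its values were seen. KLB, the co-receptor gene for endocrine FGFs, had 0.391 and 0.866 CPM in the controls and 1.42 and 1.08 CPM in the resistant libraries (edgeR adjusted p = 0.433), also named after its values were seen. FGF18 had 14 counts in control replicate 1 and 81, 98 and 45 in control replicate 2 and resistant replicates 1 and 2.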
